A study of Mus musculus with 6 samples.

Results

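The genes studied here encode AMPA receptors and the proteins that travel with them, and they are the pore-forming subunits Gria1, Gria2, Gria3 and Gria4, the transmembrane AMPA receptor regulatory proteins (TARPs) Cacng2, Cacng3, Cacng4 and Cacng8, and the cornichons Cnih2 and Cnih3. They were chosen by gene symbol, and all 10 were found among the 24972 genes of the deposited table. RNA was sequenced from P7 mouse cortex, with 3 WT libraries and 3 Zmiz1-KO-labelled libraries. Every mouse carried the floxed Zmiz1 allele (Zmiz1f/f), and those labelled Zmiz1-KO also carried Emx1Cre, which acts in the dorsal telencephalic lineage that gives rise to cortical excitatory neurons and astrocytes but not in cortical interneurons. The labels and methods give no sex or litter, and do not state whether a library came from 1 animal. The comparison asks which transcripts of this receptor complex differed when Zmiz1, a transcriptional coregulator, was targeted in the developing cortex.

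AMPA receptors are tetramers of the Gria subunits and carry most of the fast excitatory current in the cortex. Receptors that hold the edited form of Gria2 pass little calcium, whereas receptors without it pass calcium. TARPs and cornichons help the receptor leave the endoplasmic reticulum, hold it at synapses and slow its closing.

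The 4 subunit genes are close relatives, and the stretch of coding sequence around the glutamine codon at which Gria2 RNA is edited is shown because it lines the pore and lets the likeness between them be seen. Each line holds 75 bases of coding exon in the sense direction, from GENCODE transcripts on GRCm38, with the glutamine codon at bases 37 to 39. In the Gria2 line the capitals mark that codon, and in the other lines they mark each base that differs from Gria2.
Gria2: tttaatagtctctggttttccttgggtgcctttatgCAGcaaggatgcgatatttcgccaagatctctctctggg
Gria1: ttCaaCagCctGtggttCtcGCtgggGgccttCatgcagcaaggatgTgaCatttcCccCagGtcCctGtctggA
Gria3: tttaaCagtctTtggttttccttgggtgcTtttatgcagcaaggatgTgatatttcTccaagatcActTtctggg
Gria4: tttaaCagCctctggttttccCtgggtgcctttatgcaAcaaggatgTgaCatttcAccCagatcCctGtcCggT
Gria1 differed from Gria2 at 17 of the 75 positions, Gria4 at 12 and Gria3 at 7. The longest run that any pair of the 10 members shared in GENCODE transcripts was 59 bases, between Gria3 and Gria4, and that between Gria1 and Gria2 was 40 bases, so no stretch of 75 bases was common to members. With genes outside the family, 4.86% of the 75-base stretches of Cacng2 were shared, chiefly with A730060N03Rik, whose exons overlap those of Cacng2. The other members shared between 0.0% and 0.749%. The exons of Cnih2 overlap those of Yif1a. Those of Gria2, Gria3, Gria4 and Cacng8 overlap exons of Gm25749, Gm22413, Gm23811 and Gm23450, in that order. The library kit does not keep strand, so reads of such overlaps cannot be assigned with certainty. The table gives a value per gene, so neither the editing of Gria2 nor the flip and flop splice forms of the subunits were measured.

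The check of the deletion came first. Zmiz1 had 7461 to 8119 normalized counts in WT and 9660 to 9944 in Zmiz1-KO-labelled libraries, so it was higher under the label of its own deletion by 0.32 on the log2 scale (limma adjusted p = 0.00125). The table gives 1 value per gene, so reads from the deleted part and from the rest of Zmiz1 cannot be told apart, and directions below refer to labels. Xist was high in WT replicate 3 and in Zmiz1-KO-labelled replicate 2, with 25307 and 24403 normalized counts, and at most 57.3 in the other libraries, and values without these 2 libraries are given beside Gria1, Gria2 and Arc and, for the members that moved most, after the marker lists. Ddx3y, a Y-linked gene, had 0.0 and 1.89 normalized counts in these 2 libraries and 1250 to 1483 in the others, so each group drew on at least 2 animals. A single counted read was worth about 1.83 to 2.11 normalized counts, by which each member rested on roughly 436 to 7829 reads per library. Groups were compared on log2(normalized count + 1) with limma over 15800 tested genes, and a gene was called at a Benjamini-Hochberg adjusted p of 0.05. Nothing says that all libraries of a group came from separate animals or litters, and p-values measure only the spread between these libraries.

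None of the 10 members was called, where 0.411% of all tested genes were (limma). At an unadjusted p under 0.05 there were 2 members, Gria1 and Gria2, against 11.0% of all tested genes, and limma-voom called none either. The groups lay fully apart in 3 members, with Gria1 and Cacng4 higher and Gria2 lower in Zmiz1-KO-labelled libraries, and this held for 16.3% of all tested genes. Over the members the log2 fold changes had a median of 0.04, against -0.00018 for all tested genes. They ranged from -0.22 for Gria2 to 0.16 for Gria1.

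**Figure D1:**
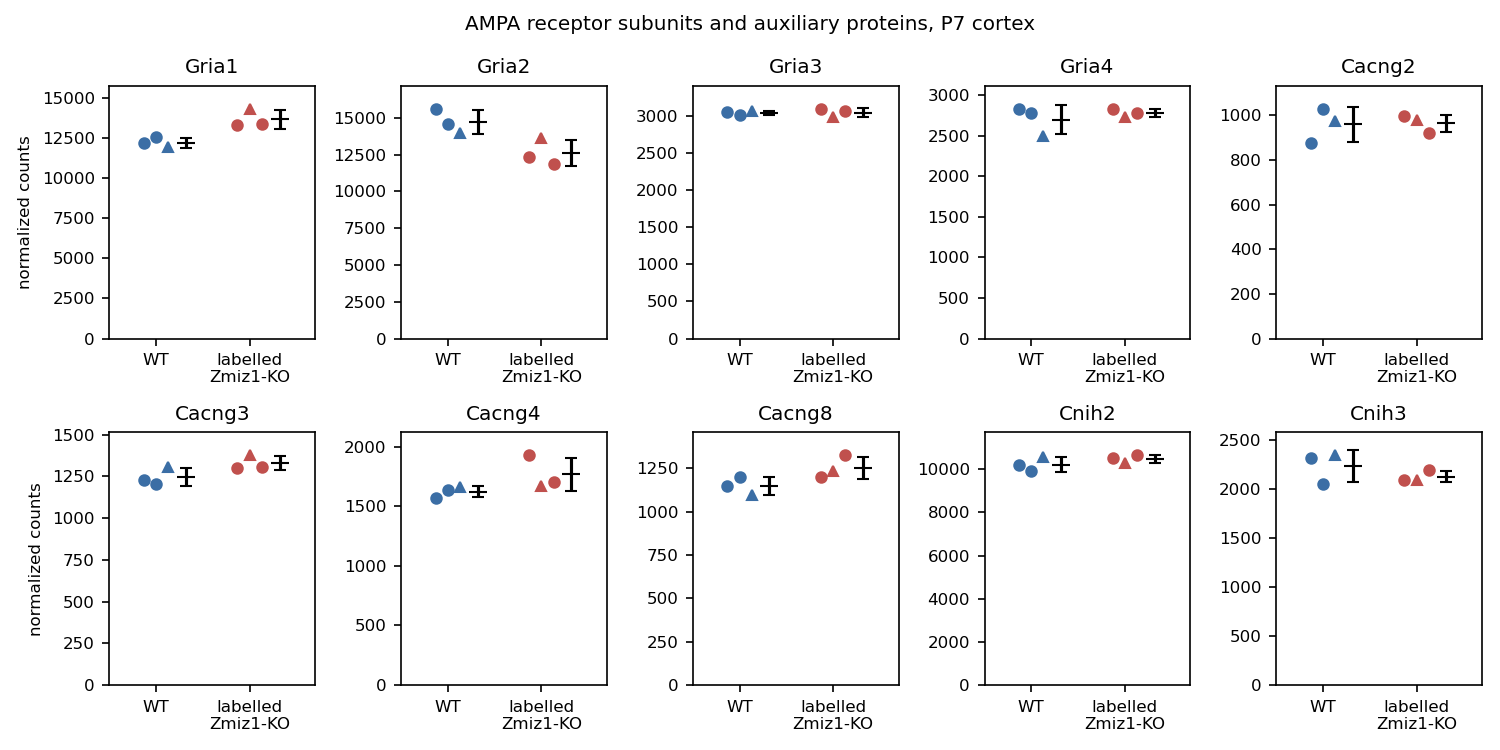
Normalized counts of each member in every library (y axis, from 0), with blue points for WT and red points for Zmiz1-KO-labelled libraries, triangles for the 2 libraries high in Xist, and black bars for the mean ± SD (n = 3). The groups lie apart in Gria1, Gria2 and Cacng4 and overlap in the other members.

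Gria2 encodes the subunit that sets calcium permeability. It had 15612, 14591 and 13968 normalized counts in WT replicates 1, 2 and 3, and 12340, 13615 and 11869 in Zmiz1-KO-labelled replicates 1, 2 and 3. Every WT library lay above every Zmiz1-KO-labelled library, and the nearest values, 13968 and 13615, were those of the 2 libraries high in Xist. The mean was 14724 ± 830 in WT and 12608 ± 903 in the other group (SD, n = 3). The log2 difference came to -0.22 with a standard error of 0.054 and a 95% confidence interval of -0.34 to -0.11. This missed the threshold (limma adjusted p = 0.132, exact two-sided permutation p = 0.1, the smallest that 3 libraries against 3 can give). Without the 2 libraries high in Xist the log2 fold change was -0.32 and passed (limma adjusted p = 0.00380), and without Zmiz1-KO-labelled replicate 2 alone it was -0.28 (limma adjusted p = 0.00508).

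Gria2 also had the longest transcript of the members, 10371 bases, and the lowest GC content in it, 36.8%, against 43.0 to 65.0% in the others. When a trend of each library with GC content and transcript length over all tested genes was removed, the log2 fold change of Gria2 was -0.12 (standard error 0.031, limma adjusted p = 0.180). The part removed was -0.11 on the log2 scale, the largest shift among the 10 members, where the others moved by -0.05 to 0.04.

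Gria1, whose subunit dominates receptors that are inserted with activity, went the other way. WT replicates 1, 2 and 3 had 12183, 12551 and 11931 normalized counts, and Zmiz1-KO-labelled replicates 1, 2 and 3 had 13324, 14318 and 13350. The groups did not overlap, and again the library high in Xist was the farthest from the rest of the group labelled Zmiz1-KO. The mean was 12222 ± 312 in WT and 13664 ± 567 in the other group (SD, n = 3). The log2 difference came to 0.16 with a standard error of 0.039 and a 95% confidence interval of 0.08 to 0.24. It missed the threshold as well (limma adjusted p = 0.112, exact permutation p = 0.1). Without the 2 libraries high in Xist it was 0.11 (limma adjusted p = 0.252), whereas after the correction for GC content and length it was 0.18 and passed (limma adjusted p = 0.0342).

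Since the scaling between libraries cancels in a ratio within a library, the Gria1 to Gria2 ratio of normalized counts was taken in each. It was 0.780, 0.860 and 0.854 in WT replicates 1, 2 and 3, and 1.08, 1.05 and 1.12 in Zmiz1-KO-labelled replicates 1, 2 and 3. Every Zmiz1-KO-labelled library thus lay above every WT library. The counts in the ratio were not divided by length, so it does not say which of the genes had the higher level. The log2 ratio was -0.27 ± 0.078 in WT and 0.12 ± 0.049 in the other group (SD, n = 3), a difference of 0.39. Both genes were known to go in opposite directions when the ratio was chosen, so it is a description without a test. The difference was 0.43 without the 2 libraries high in Xist and 0.30 after the correction for GC content and length.

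**Figure D2:**
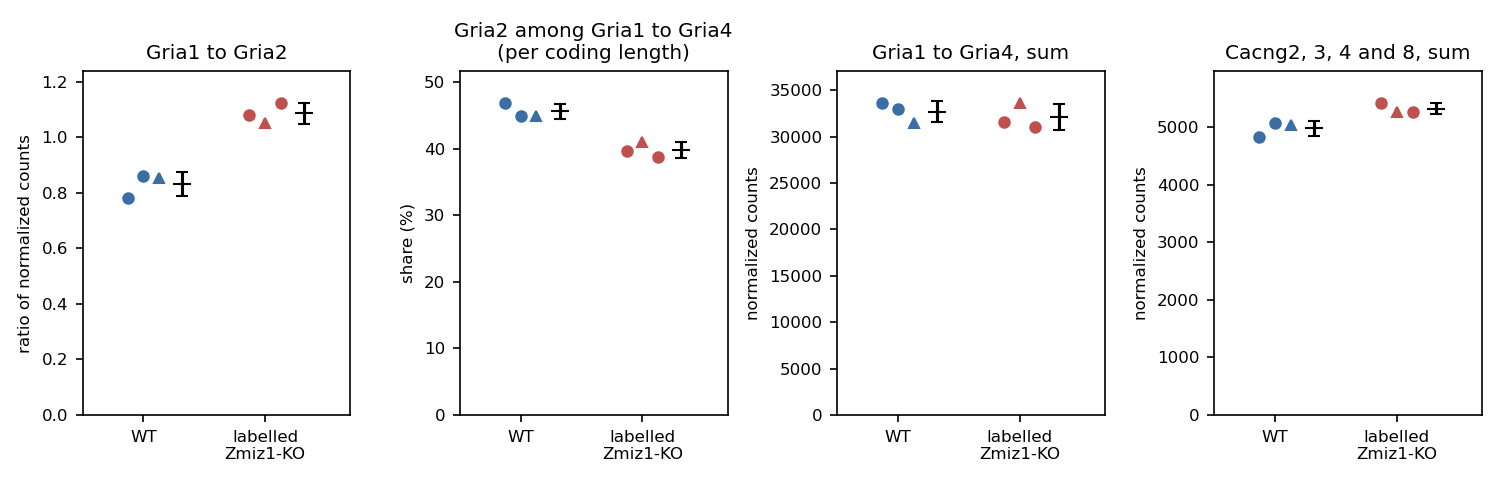
From left to right, the Gria1 to Gria2 ratio, the share of Gria2 among Gria1 to Gria4 per coding length, the sum of Gria1 to Gria4, and the sum of the 4 TARPs, in every library (y axes from 0), with triangles for the libraries high in Xist and bars for the mean ± SD (n = 3). The ratio lies between 0.780 and 0.860 in WT and between 1.05 and 1.12 in Zmiz1-KO-labelled libraries, while the sums of Gria1 to Gria4 overlap.

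Gria3 and Gria4 showed no such difference. Gria3, which is X-linked and whose subunit pairs with Gria2 in cortical neurons, had 3047, 3014 and 3062 normalized counts in WT replicates 1, 2 and 3 and 3092, 2978 and 3063 in Zmiz1-KO-labelled replicates 1, 2 and 3. Its WT values were the tightest of any member, with a coefficient of variation of 0.819%, which is below the 2.48 to 2.65% that counting alone would give. The log2 fold change was 0.0014, and its 95% confidence interval corresponds to a change of between -5.97% and 6.56% (limma adjusted p = 0.997). Gria4, prominent in interneurons and in the early postnatal brain, had 2826, 2774 and 2495 normalized counts in WT replicates 1, 2 and 3, and 2829, 2733 and 2783 in Zmiz1-KO-labelled replicates 1, 2 and 3. Only WT replicate 3 stood low, and the log2 fold change was 0.05 (95% confidence interval -0.06 to 0.15, limma adjusted p = 0.812).

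The 4 subunit genes together had 31456 to 33668 normalized counts in WT and 31064 to 33644 in Zmiz1-KO-labelled libraries, and these ranges overlapped almost wholly. Within that sum Gria2 made up 46.4, 44.3 and 44.4% in WT replicates 1, 2 and 3. In Zmiz1-KO-labelled replicates 1, 2 and 3 it made up 39.1, 40.5 and 38.2%. With each count divided by the longest transcript, its share was 31.3, 29.6 and 29.6% in WT replicates 1, 2 and 3. The Zmiz1-KO-labelled replicates 1, 2 and 3 then had 25.3, 26.4 and 24.6%. Per coding length the shares were 45.6 ± 1.16% and 39.8 ± 1.15% (SD, n = 3). The level of the share thus depends on the length used. The difference was -4.73 percentage points per longest transcript and -5.79 per coding length. Like the ratio, the share holds Gria1 and Gria2, and it is a description without a test. It was not taken after the correction for GC content and length.

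Among the TARPs, Cacng4, which accompanies receptors early in development and in glia, had 1569, 1635 and 1658 normalized counts in WT replicates 1, 2 and 3, and 1926, 1673 and 1704 in Zmiz1-KO-labelled replicates 1, 2 and 3. The groups did not overlap, but 1 library, Zmiz1-KO-labelled replicate 1, stood well above the rest. The log2 fold change was 0.12 (95% confidence interval -0.0020 to 0.25, limma adjusted p = 0.468) and 0.06 without that library. Cacng8, a TARP of forebrain synapses, had 1149, 1202 and 1097 normalized counts in WT replicates 1, 2 and 3. In Zmiz1-KO-labelled replicates 1, 2 and 3 it had 1199, 1232 and 1324, with 2 of the 3 above all WT libraries. Its log2 fold change was 0.12 as well (95% confidence interval -0.0071 to 0.25, limma adjusted p = 0.489).

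Cacng3, a cortical relative of Cacng2, ranged from 1203 to 1308 normalized counts in WT and from 1302 to 1376 in Zmiz1-KO-labelled libraries, so that the groups overlapped by a narrow margin (log2 fold change 0.09, 95% confidence interval -0.03 to 0.21, limma adjusted p = 0.595). Cacng2, or stargazin, the founding TARP, spread from 875 to 1028 in WT, and the 920 to 995 of the other group fell within that range. Its log2 fold change was 0.0094, with a 95% confidence interval that corresponds to -9.21 to 11.6% (limma adjusted p = 0.981). Added up, the 4 TARPs had 4823, 5068 and 5036 normalized counts in WT replicates 1, 2 and 3, and 5422, 5259 and 5256 in Zmiz1-KO-labelled replicates 1, 2 and 3. The sums of the groups lay apart although only Cacng4 did so by itself, and the sum was taken after the values were seen.

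Both cornichons overlapped between the groups. Cnih2, the more abundant of them, had 9898 to 10560 normalized counts in WT and 10274 to 10639 in Zmiz1-KO-labelled libraries (log2 fold change 0.04, 95% confidence interval -0.04 to 0.12, limma adjusted p = 0.790). Cnih3 had 2052 to 2343 in WT and 2092 to 2198 in the other group, wholly within the WT range (log2 fold change -0.07, 95% confidence interval -0.19 to 0.05, limma adjusted p = 0.703). Within each library the log2 ratio of Cnih3 to Cnih2 was -2.14, -2.27 and -2.17 in WT and -2.33, -2.30 and -2.27 in the Zmiz1-KO-labelled group, which lay apart by a narrow margin. Those ratios were taken after the values were seen.

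**Figure D3:**
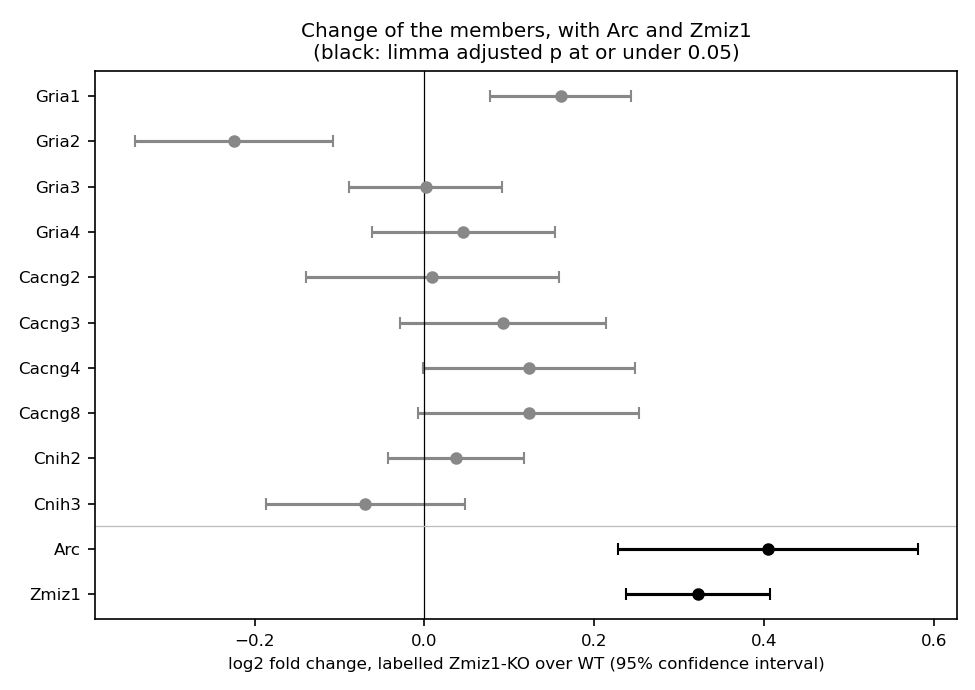
Log2 fold change of the Zmiz1-KO-labelled libraries over WT (x axis) with limma's 95% confidence interval for each member, and below the line for Arc and Zmiz1, with black points for genes at an adjusted p of 0.05 or less. Gria1 (0.16) and Gria2 (-0.22) are the members whose interval does not reach 0, and only Arc and Zmiz1 are black.

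Levels of different genes were compared as normalized counts per kilobase of the longest GENCODE transcript. Cnih2 was highest by far, with 7370 to 7922 per kilobase across the 6 libraries, followed by Gria1 with 2151 to 2582 and Gria2 with 1144 to 1505. Next came Cnih3 with 769 to 878, Cacng8 with 578 to 698 and Gria3 with 574 to 596, and the last 2 of these overlapped. Gria4, Cacng4 and Cacng3 followed at 433 to 550 per kilobase without a clear order among them, and Cacng2 was lowest with 159 to 187. Per kilobase of coding sequence Cnih2 stayed first, but Gria2 (4481 to 5894) and Gria1 (4385 to 5262) overlapped, and Gria4 (922 to 1045), Cacng2 (903 to 1061) and Cacng8 (865 to 1044) overlapped at the low end. The order of Gria1 and Gria2, and the place of Cacng8, thus rest on the length chosen, and the annotation the authors counted with is not given in the sources used here.

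The spread between replicates was compared with the error from counting reads. Within WT the coefficient of variation ran from 0.819% for Gria3 to 8.08% for Cacng2, and within Zmiz1-KO-labelled libraries from 1.72% for Gria4 to 7.81% for Cacng4. Counting alone would give about 1.13 to 1.31% for Gria2, whose coefficients of variation were 5.64% and 7.16%, and 4.33 to 4.79% for Cacng2. In Gria3 the spread was below the counting error in both groups, and so it was in the Zmiz1-KO-labelled group for Gria4 (1.72% against 2.59 to 2.87%), Cacng2, Cacng3 and Cnih3 and in WT for Cacng4. The spread of Gria2 was thus above its counting error in both groups. For the members just named the counting error was at least of the same order as the spread in 1 group or both. What set the spread was not tested.

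Genes that act with the receptor were read from 3 further lists. Of 17 other auxiliary and assembly genes, none was called (limma), where 0.411% of all tested genes were, and limma-voom called none. The groups lay fully apart only in Shisa8 (higher) and Vwc2l (lower), against 16.3% of all tested genes. Only 1 gene had an unadjusted p under 0.05 (limma), against 11.0% of all tested genes. That gene was Shisa6, whose product keeps AMPA receptors at the synapse, with 2944, 3386 and 3141 normalized counts in WT replicates 1, 2 and 3 and 2528, 2952 and 2812 in Zmiz1-KO-labelled replicates 1, 2 and 3 (log2 fold change -0.19, limma adjusted p = 0.264). The groups overlapped by a narrow margin, at 2944 and 2952. The other 2 of these genes with the largest log2 fold changes, Shisa8 (0.27, limma adjusted p = 0.723) and Vwc2 (0.14, limma adjusted p = 0.817), had 41.3 to 60.1 and 148 to 222 normalized counts. Without WT replicate 2 the log2 fold change of Shisa8 was 0.18, and that of Vwc2 ran from 0.0047 without WT replicate 3 to 0.28 without Zmiz1-KO-labelled replicate 1. The median log2 fold change of the 17 genes was 0.02, and 10 were positive and 7 negative.

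Of 17 trafficking and anchoring genes 1 was called, where 0.411% of all tested genes were. Arc, an early gene whose product drives the removal of AMPA receptors from synapses, rose from 446, 498 and 505 normalized counts in WT replicates 1, 2 and 3 to 644, 678 and 596 in Zmiz1-KO-labelled replicates 1, 2 and 3. The groups were far apart, and the log2 difference was 0.40 with a standard error of 0.084 (limma adjusted p = 0.0444). It lost the call with each of the 6 libraries left out in turn (limma adjusted p from 0.0613 to 0.213, log2 fold change 0.35 to 0.45), with limma-voom (0.41, adjusted p = 0.0561), without the 2 libraries high in Xist (0.39, limma adjusted p = 0.0856) and after the correction for GC content and length (0.37, limma adjusted p = 0.0953).

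At an unadjusted p under 0.05 there were 4 of the 17 genes, against 11.0% of all tested genes. Besides Arc they were Nptx2, a secreted pentraxin that gathers AMPA receptors (log2 fold change 0.20, limma adjusted p = 0.381), Akap5, which anchors kinases and phosphatases to the receptor (0.19, limma adjusted p = 0.310), and Lrrtm1, a synaptic adhesion protein that was singled out after its values were seen (-0.13, limma adjusted p = 0.331). Without WT replicate 1 the log2 fold change was 0.13 for Nptx2 and 0.10 for Akap5. In 6 of the 17 genes the groups lay fully apart, against 16.3% of all tested genes. They were these 4 and, named after their values were seen, Nsf (0.04, limma adjusted p = 0.780) and Epb41l1 (0.04, limma adjusted p = 0.697). Akap5 had 2096, 2503 and 2602 normalized counts in WT and 2721, 2743 and 2737 in Zmiz1-KO-labelled replicates 1, 2 and 3, where it was very even. The median log2 fold change of the list was 0.04.

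The deaminases that edit the transcripts of glutamate receptors were the last list. Adarb1, the enzyme of the glutamine codon of Gria2, had 4738 to 5057 normalized counts in WT and 4740 to 4882 in Zmiz1-KO-labelled libraries (log2 fold change -0.04, limma adjusted p = 0.778). Adar had 5887 to 6238 and 6134 to 6260 (0.04, limma adjusted p = 0.797). Adarb2, a relative without known editing activity that marks a class of interneurons, had 688 to 773 and 733 to 924 (0.15, limma adjusted p = 0.547, and 0.06 without Zmiz1-KO-labelled replicate 2). None of the 3 was called or had an unadjusted p under 0.05 (limma), limma-voom called none, and the groups overlapped in each.

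All markers of cortical excitatory neurons were present, and none of the genes in the marker lists was at 0 in any library. Bulk RNA cannot tell fewer cells of a type from less RNA in each. Of all tested genes, 0.411% were called (limma), 11.0% had an unadjusted p under 0.05, and the groups lay apart in 16.3%. The summed level of 8 interneuron markers was 18244 to 22579 normalized counts in WT and 23528 to 25566 in Zmiz1-KO-labelled libraries. All 8 log2 fold changes were positive and none was called (limma, 4 with an unadjusted p under 0.05). The groups lay apart in 3 of the 8, Slc32a1, Lhx6 and Sst, and overlapped in the rest. Whether the sum came from interneurons alone was not tested. For 7 markers of striatal projection neurons, which lie next to the dissected cortex, the sums were 13936 to 17790 and 18979 to 21342, with all 7 positive and Pde10a called. For 7 markers of the oligodendrocyte lineage, cells that also express AMPA receptors, they were 16694 to 18603 and 14931 to 15583, with 6 negative and Olig1 called. Microglia (2951 to 3177 and 2896 to 2937) lay apart by a narrow margin. Of 5 markers 3 were negative, 2 positive and none called (limma, 1 with an unadjusted p under 0.05, P2ry12 at -0.33). The sums overlapped for excitatory neurons (42115 to 46804 and 42175 to 43989), astrocytes (40371 to 42689 and 38632 to 40602) and endothelial cells (5494 to 5624 and 5459 to 5761). Of 8 excitatory markers 7 were negative, 3 had an unadjusted p under 0.05 (limma), and Rorb was called lower. The groups lay apart in 1 of these markers that was higher, Bcl11b (0.15), and in 2 that were lower, Rorb (-0.43) and Neurod2 (-0.17). Slc17a7, with the highest counts of that list, was at -5.5e-06. Among astrocyte markers Aqp4 was called lower, 4 of 6 were negative, and Gja1 at 0.08 and Gfap at 0.05 were positive. Of 4 endothelial markers 3 were negative.

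WT replicate 1 had both the lowest interneuron and striatal sums and the highest Gria2, and without it the log2 fold change of Gria2 was -0.18 (limma adjusted p = 0.283). Choroid plexus markers varied without regard to label, at 241 normalized counts in WT replicate 1 and 286 in Zmiz1-KO-labelled replicate 2 against 3129 to 8254 in the other libraries. The part of these cell types in the values of Gria1, Gria2 and the TARPs was not tested.

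**Figure D4:**
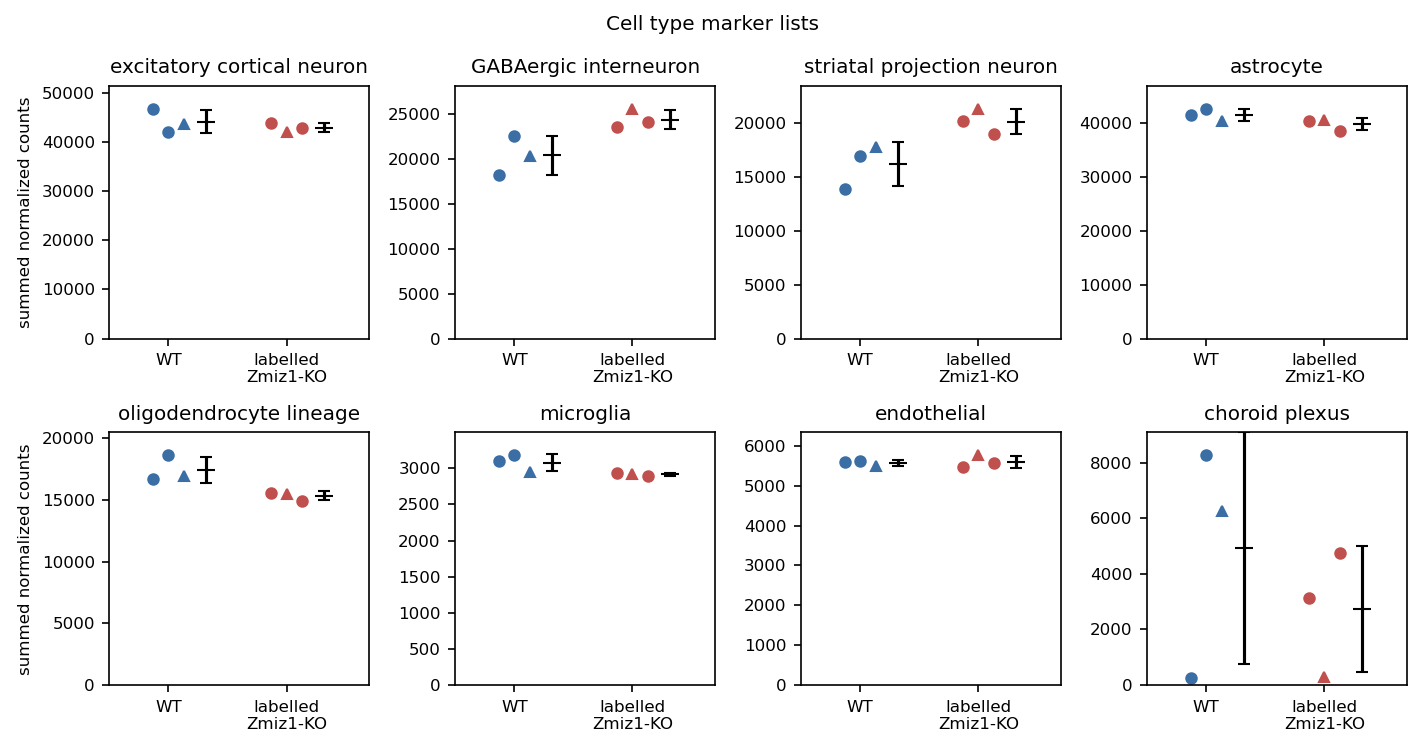
Summed normalized counts of 8 lists of cell type markers in every library (y axes from 0), with triangles for the libraries high in Xist and bars for the mean ± SD (n = 3). Interneuron and striatal sums are higher, and oligodendrocyte lineage and microglia sums lower, in all 3 Zmiz1-KO-labelled libraries than in all 3 WT libraries. For microglia the margin is narrow.

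The direction of Gria1 and Gria2 was the same in all 19 alternatives run, while their call was not. Gria1 ranged from 0.11 to 0.18 and passed the threshold in 2 of 19, and Gria2 ranged from -0.32 to -0.12 and passed in 3 of 19. With each library left out in turn, the limma adjusted p ranged from 0.0851 to 0.327 for Gria1 and from 0.00508 to 0.453 for Gria2.

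Among the other members none passed the threshold in any alternative, but the small values moved. Without the 2 libraries high in Xist the log2 fold change was 0.18 for Cacng4, 0.08 for Cnih2, -0.02 for Cnih3, 0.0032 for Gria4 and 0.02 for Gria3. With each library left out, Cnih3 ran from -0.13 without WT replicate 2 to -0.04 without WT replicate 3, and Cnih2 from 0.01 to 0.06 without those same libraries. Cacng8 was 0.08 without Zmiz1-KO-labelled replicate 3. After the correction for GC content and length Cnih2 was at 0.00049 and Cacng3 at 0.06, and Gria3 and Gria4 were at 0.05 and 0.09.

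**Figure D5:**
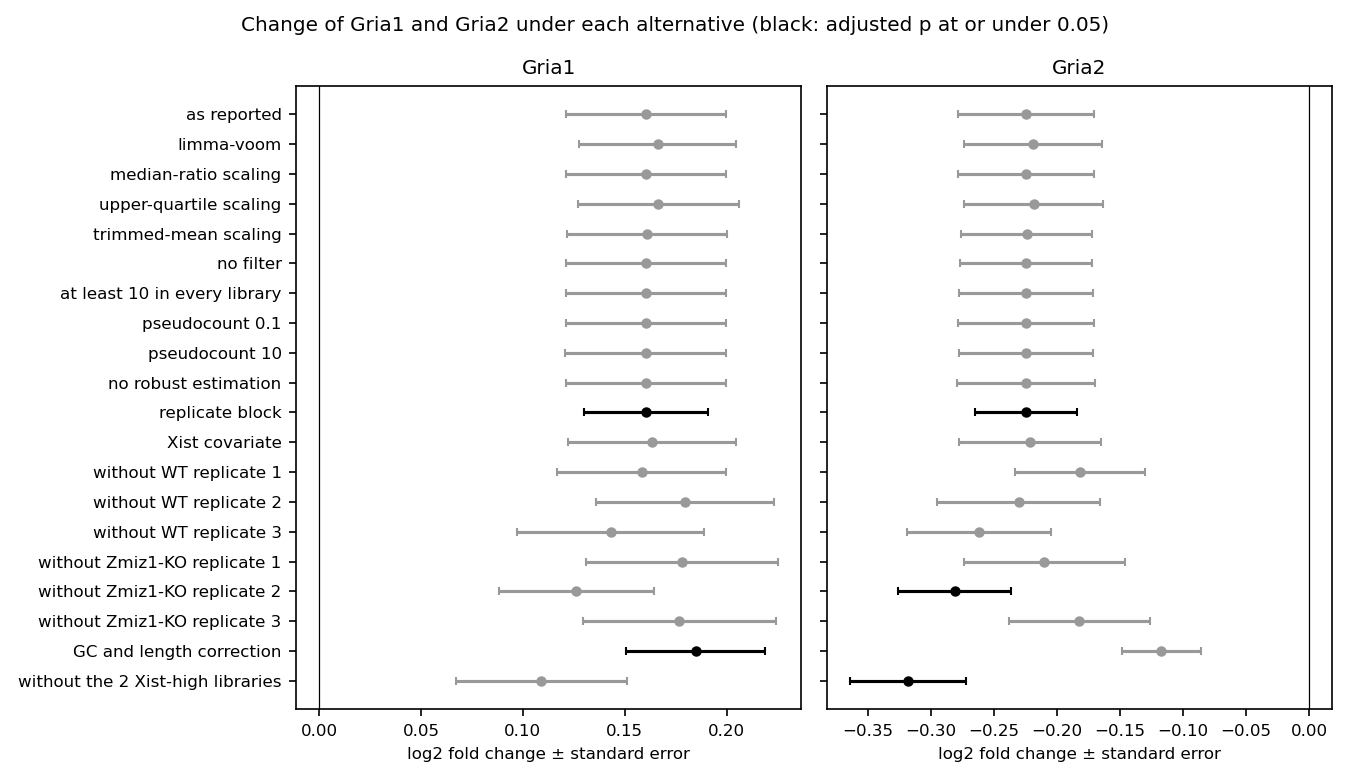
Log2 fold change ± standard error of Gria1 (left) and Gria2 (right) as reported and under each of 19 alternatives, with black points at an adjusted p of 0.05 or less. Gria1 stays above 0 and Gria2 below 0 throughout, and Gria2 is nearest to 0 after the correction for GC content and length (-0.12).

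On GRCm38 the subunit genes lie on chromosome 11 from 57011387 to 57330244 (Gria1), chromosome 3 from 80681450 to 80802835 (Gria2), chromosome X from 41400854 to 41678601 (Gria3) and chromosome 9 from 4417896 to 4796234 (Gria4). The TARP genes lie on chromosome 15 from 77991748 to 78120028 (Cacng2), chromosome 7 from 122670492 to 122769393 (Cacng3), chromosome 11 from 107732357 to 107794557 (Cacng4) and chromosome 7 from 3390683 to 3415648 (Cacng8). Cnih2 lies on chromosome 19 from 5092868 to 5098521 and Cnih3 on chromosome 1 from 181352628 to 181460641.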

How the data were processed

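P7 cortices were sequenced from 3 WT and 3 Zmiz1-KO samples with a TruSeq kit that does not keep strand. The authors aligned reads to mm10 with STAR and normalized gene counts with DESeq2 in BaseSpace, and deposited the result as a signal table of normalized counts with 1 column per library. The tool versions and gene annotation are not given in the sources used here. Values were not whole numbers, so count models were not used. The library sums were 32661979 to 33239707, and dividing them by the commonest low value gave about 15494272 to 17857835 reads.

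A gene was tested when 3 or more libraries reached 10, and values entered as log2(value + 1). The tool was limma 3.58.1 under R 4.3.3, run with an intensity trend, robust estimation and no covariate, two-sided, with Benjamini-Hochberg adjustment over all 15800 tested genes. Log2 fold changes are on that scale. The procedure was tried on simulated data with 1 dispersion for all genes and with changes larger than those of the members. That trial does not cover changes as small as theirs. Members and lists were chosen with earlier results of these data known. Named genes are the members, Zmiz1, Xist, Ddx3y, the 3 editing genes, and of the other lists the called genes and the 3 with the largest absolute log2 fold change. Lrrtm1, Nsf, Epb41l1, Vwc2l and the genes named among the marker lists were added after their values were seen.

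Lengths, GC content and shared 75-base stretches (both strands) came from GENCODE vM21 (GRCm38), and 98.9% of tested genes had a length and GC content. Alternatives were other scalings, filters, pseudocounts and models, the replicate number as a block, Xist as a covariate, and each library left out. The GC content and length correction and the fit without the libraries high in Xist were added after the data were seen. Plots used matplotlib 3.10.9 under Python 3.11.15.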

Additional observations from a re-analysis of the deposited data

How the results depend on the processing

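No member was called (limma), and this count was 2 with the replicate number as a block (Gria1 and Gria2, limma adjusted p = 0.0157 and 0.0237), 1 after the GC content and length correction (Gria1), 1 without the 2 libraries high in Xist (Gria2), and 0 to 1 with each library left out. The replicate numbers gave no sign of pairing. Deviations from the group means of same-numbered libraries correlated at -0.0051, -0.11 and -0.0063, and no library correlated best with its own number. Such values cannot show that the samples were unpaired. Over all tested genes the count of 65 (26 higher, 39 lower) was 168 with the block, 153 without the libraries high in Xist, 106 at an adjusted p of 0.1, 38 after the GC content and length correction, 17 without robust estimation, and 12 (without Zmiz1-KO-labelled replicate 3) to 152 (without Zmiz1-KO-labelled replicate 2) with each library left out, with 17 and 30 without Zmiz1-KO-labelled replicate 1 and WT replicate 1. Among the 37 genes of the other 3 lists, where Arc alone was called, the count was 2 with the block (Shisa6 added, limma adjusted p = 0.0380), 0 with limma-voom, without robust estimation, after the GC content and length correction and without the libraries high in Xist, and 0 to 0 with each library left out. The difference of the Gria1 to Gria2 log2 ratio, 0.39, was 0.30 after the GC content and length correction and 0.34 to 0.41 with each library left out. That of the Gria2 share, -4.73 percentage points per longest transcript, was -5.78 without division by length, -5.79 per coding length, and -5.23 to -4.16 with each library left out. Of the members, only those with changes near 0 turned direction: Gria3 (-0.00044 with Xist as a covariate, -0.0100 to 0.017 with each library left out), Gria4 (-0.0094 to 0.080) and Cacng2 (-0.055 to 0.061). Vwc2 turned to -0.050 without the libraries high in Xist. The causes were not tested. With 3 libraries a group, no TARP or cornichon passed the threshold, which does not show that they did not differ.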
